A study of Mus musculus with 6 samples.

Results

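Claudins are membrane proteins with several spans that polymerise into the strands of the tight junction, the seal between neighbouring epithelial cells that limits what passes between them. Occludin, encoded by Ocln, runs in the same strands, and Tjp1 encodes ZO-1, the scaffold under the membrane that ties the strands to actin. The mix of claudins sets how tight a layer is and which ions it lets through, and the conjunctival epithelium, the thin lining of the lids and front of the eye, relies on such junctions as part of the barrier of the ocular surface. Described here are 8 claudin genes (Cldn1, Cldn3, Cldn4, Cldn6, Cldn7, Cldn8, Cldn11 and Cldn23) with Ocln and Tjp1. They had 11 probes among the 45281 probes of the array, and in symbols they were 10 of the 19057 genes named there. Cldn11 was chosen for its lower signal on the knockout arrays, so that difference is described without a test. The others were taken as its partners in the tight junction.

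The arrays measured RNA of E14.5 mouse embryos (mixed FVB and 129 background), cut by laser from the nasal, temporal or dorsal conjunctival epithelium. The 3 arrays labelled knockout (KO) carried Sox9 fx/fx with Le-Cre (Sox9-/-), a Cre driver of the ocular surface ectoderm, and the 3 others were labelled wild type (WT), with no further allele given. Each combination of genotype and region had a single array. The design text gives 3 embryos per genotype and pooled cDNA for each region, so arrays of a genotype share embryos, and a p-value over regions is too small where variation between embryos is meant. Sox9 itself averaged a normalized log2 intensity of 10.03 ± 0.18 (SD, n = 3 arrays) on KO and 9.54 ± 1.10 on WT arrays with its brighter probe, and 6.20 ± 0.37 on KO and 5.75 ± 0.52 on WT arrays with its dimmer one. Both probes were thus higher on average under the knockout label, most of all in nasal (by 1.92 and 0.98). The brighter probe differed by 0.05 in temporal and -0.50 in dorsal, and the dimmer by -0.42 and 0.77. No loss of Sox9 signal was thus seen on average. Where the probes lie relative to the deleted part is not known here, so the label could not be checked from them. "KO" hereafter stands for an array labelled knockout.

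Between 39.8% and 45.6% of probes were detected per array, with a median of 43 beads behind a probe. The mean correlation of an array with the others over all genes tested ran from 0.88 for KO nasal, the lowest, to 0.93 for WT dorsal, and KO nasal also had the fewest detected probes. All 12 markers of surface epithelium on the list, among them the keratins Krt5 and Krt14, Cdh1 and Pax6, were detected on every array. Their summed normalized intensity was 9133 to 10108 on KO and 8469 to 9732 on WT arrays. Of 10 endothelial markers 0 or 1 was detected per array. In tissue RNA, fewer cells of a type and less RNA per cell cannot be told apart.

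Of the 10 genes 9 had a probe detected on at least 2 of the 6 arrays and were tested among 11147 genes. Cldn4, a claudin of tight simple epithelia, was detected on the KO nasal array alone and was not tested.

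Before the values, the promoters of 3 members are shown, those of Cldn11 and Cldn6 because they were the members whose KO and WT arrays did not overlap, and that of Cldn3 because its difference changed direction between nasal and temporal. The sequences are from RefSeq (GRCm38.p6), run from 250 bases before to 50 after the start of the gene, and read 5′ to 3′ on the gene's strand. Windows of 300 bases were found for 8 of the 10 genes, and Cldn8 and Cldn23 had none. Capitals mark matches, on either strand, to the CCAAT box (CCAAT), the GC box (GGGCGG), the E-box bound by Snail and Zeb factors (CACCTG), the Grainyhead motif AACCGGTT and the SOX core ACAAT. The CCAAT and GC boxes were added after the sequences had been read.
Cldn11, chr3:31149670-31149969, strand +: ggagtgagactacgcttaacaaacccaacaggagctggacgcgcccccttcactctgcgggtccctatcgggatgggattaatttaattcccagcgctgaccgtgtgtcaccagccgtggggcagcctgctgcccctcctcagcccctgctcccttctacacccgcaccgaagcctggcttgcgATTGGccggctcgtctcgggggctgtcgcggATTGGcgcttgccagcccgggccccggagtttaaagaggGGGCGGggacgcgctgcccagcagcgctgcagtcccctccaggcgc
Cldn6, chr17:23679115-23679414, strand +: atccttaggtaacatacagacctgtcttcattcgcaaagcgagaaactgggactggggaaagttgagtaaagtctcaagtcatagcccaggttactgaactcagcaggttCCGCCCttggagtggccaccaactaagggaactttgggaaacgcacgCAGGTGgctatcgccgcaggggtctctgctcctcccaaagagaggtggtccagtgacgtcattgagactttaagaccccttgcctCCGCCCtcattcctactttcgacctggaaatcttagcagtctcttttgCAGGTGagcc
Cldn3, chr5:134985964-134986263, strand +: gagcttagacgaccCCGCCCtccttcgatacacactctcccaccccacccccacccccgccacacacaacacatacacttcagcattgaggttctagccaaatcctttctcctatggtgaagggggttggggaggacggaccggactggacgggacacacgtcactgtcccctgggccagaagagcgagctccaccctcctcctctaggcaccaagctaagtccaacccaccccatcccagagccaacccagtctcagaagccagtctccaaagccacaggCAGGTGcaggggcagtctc

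The Cldn11 window held 2 CCAAT boxes, at -66 and -35, and 1 GC box at 5, counted from the start of the gene. The Cldn6 window held 2 E-boxes, at -93 and 41, and 2 GC boxes, and the Cldn3 window 1 E-box at 32 and 1 GC box. Matches did not overlap each other. The 8 genes had 10 windows, as Cldn7 and Ocln each had 2. The SOX core was in 0 of the 10, against 31% of 32851 promoter windows of this length, and the Grainyhead motif in 0 of 10, against 0.146%. E-boxes were in 6 of 10 windows (Cldn3, Cldn4, Cldn6, Cldn7 and Ocln), against 20.2%. The 2 Ocln windows overlap, and 1 E-box, at -213 in the first and at 8 in the second, is counted in both. CCAAT boxes were in 2 of 10 (Cldn11 and Ocln), against 37.4%, and GC boxes in 9 of 10, from all 8 genes, against 35.7%. These are matches of letters, and binding was not measured.

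Cldn11, known from the myelin of oligodendrocytes and from the junctions between Sertoli cells, had the widest range of the 10 genes over the arrays. Its signal before normalization was 101.7 ± 2.54 intensity units (bead SE, 48 beads) on KO nasal, 104.2 ± 2.82 on KO temporal and 85.4 ± 2.0 on KO dorsal. On the WT arrays it was 426 ± 17.1 in nasal, 152 ± 4.15 in temporal and 248 ± 9.09 in dorsal, with array medians of 77.3 to 83.7. All 3 KO arrays thus lay below all 3 WT arrays, and the KO arrays were near the dim end of the scale while still detected. On the normalized log2 scale the values were 5.33, 5.25 and 4.58 on KO nasal, temporal and dorsal, and 8.73, 6.58 and 7.78 on WT nasal, temporal and dorsal.

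The difference in Cldn11, KO minus WT, was -3.40 log2 units in nasal (bead SE 0.12, 10.5-fold), -1.33 in temporal (bead SE 0.12, 2.51-fold) and -3.21 in dorsal (bead SE 0.13, 9.24-fold). Counted from the most negative of 11147 genes it ranked 5 in nasal, 388 in temporal, 1 in dorsal and 3 in the fit over regions, where it was -2.65. These ranks describe the contrast on which the gene was chosen. Without background correction the nasal, temporal and dorsal differences were -2.26, -0.66 and -1.74, and with an offset of 50 they were -2.63, -0.85 and -2.14, so the fold depends on how the dim KO signals are treated while the direction did not turn under the alternatives run. The authors' processed values gave 26.3, 24.1 and 8.99 on KO and 401, 80.6 and 201 intensity units on WT nasal, temporal and dorsal, in the authors' deposited table.

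Within wild type the order of Cldn11 from high to low was nasal, dorsal, temporal, with steps of 0.94 (bead SE 0.10) and 1.21 (bead SE 0.10) log2 units, each larger than 1.96 bead SE. Among KO arrays nasal and temporal were 0.08 apart (bead SE 0.14), and dorsal was lower by 0.67 (bead SE 0.15). Over both genotypes nasal minus temporal was 1.11 (SE 0.56, adjusted p = 0.725 in limma), nasal higher on both the WT and the KO arrays. Nasal and temporal averaged, less dorsal, gave 0.29 (SE 0.48, adjusted p = 0.999 in limma). Neither region comparison passed.

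**Figure D1:**
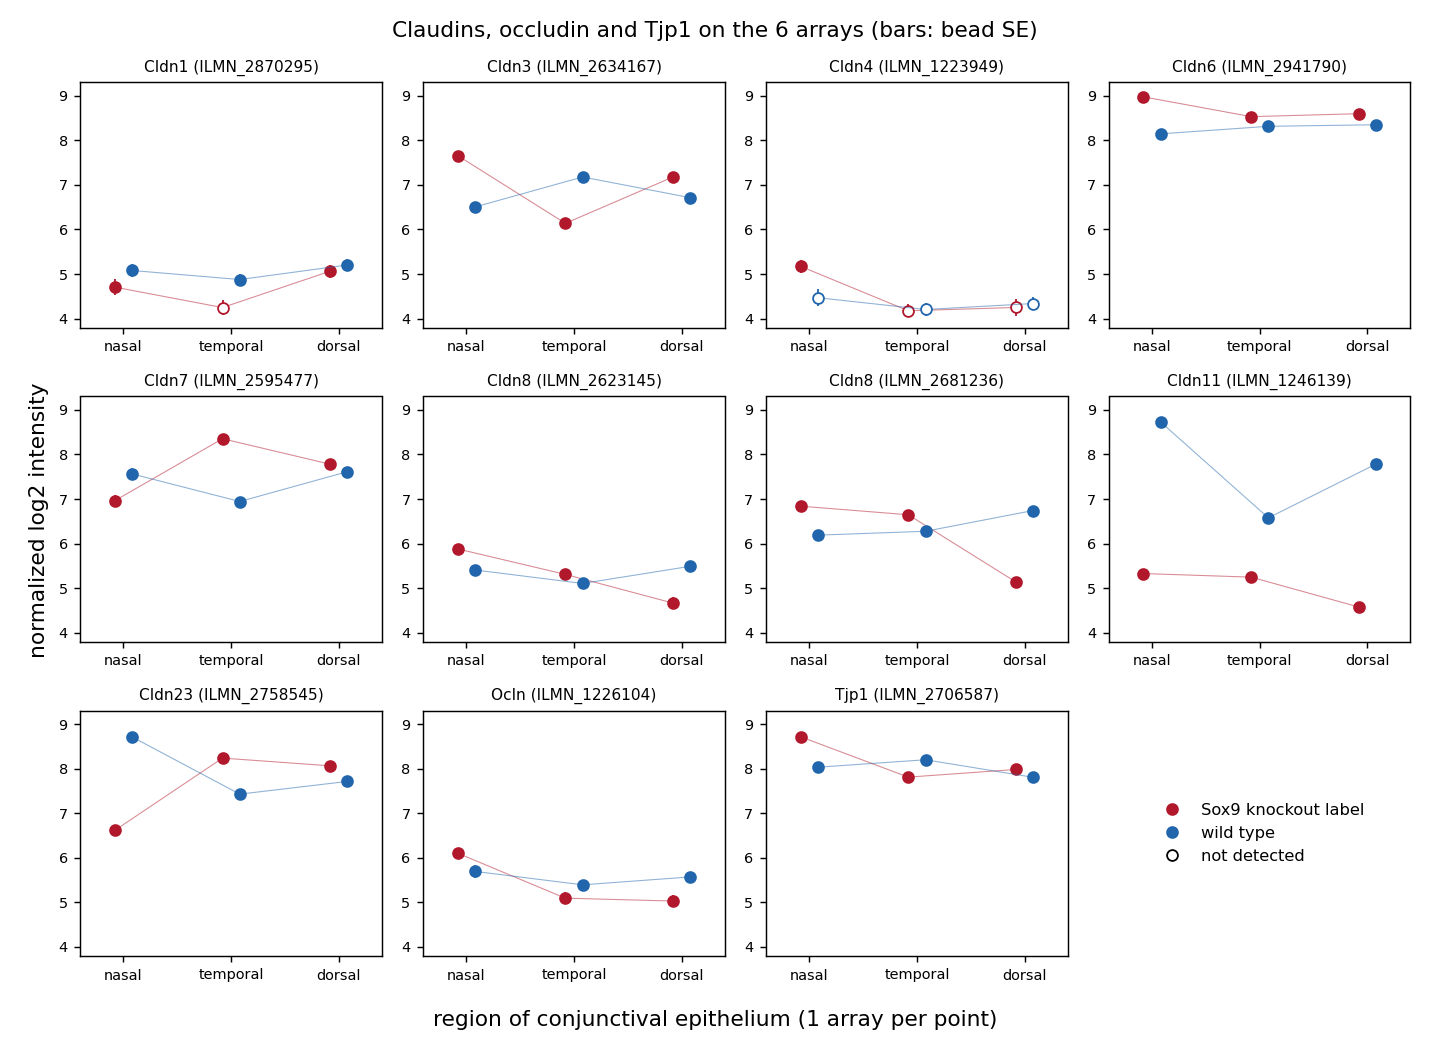
Normalized log2 intensity (vertical axis) of the 11 probes by region (horizontal axis), with 1 point per array, red for arrays labelled knockout and blue for wild type, bars for the bead SE and open circles for arrays on which the probe was not detected. Cldn11 is the panel with the widest gap, 4.58 to 5.33 on KO against 6.58 to 8.73 on WT arrays, and lines join the regions of a genotype only to guide the eye.

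Markers of other tissues also differed between the arrays, and their part in the Cldn11 difference was not tested. Of 11 cartilage markers 5 to 8 were detected per array, and their summed normalized intensity was 125 to 176 on KO and 227 to 2005 on WT arrays, so the groups did not overlap. Much of the WT sum was collagen: Col2a1 read 8.08, 10.04 and 6.15 on WT nasal, temporal and dorsal and 4.24 to 5.59 on KO arrays, and Col9a1 was bright on WT temporal alone. Acan, Hapln1 and Matn1 of the same list averaged 0.18, 0.61 and 0.14 higher on KO arrays, Matn1 without being detected on any. The highest cartilage sum was on WT temporal, where Cldn11 was the lowest of the WT arrays. Of 7 pigment cell markers 1 or 2 were detected, with sums of 354 to 431 on KO and 150 to 335 on WT arrays. Tyr, Tyrp1, Dct and Slc45a2 were detected on 0 arrays, Mlana on 1, Pmel on 4 and Mitf on 6. Pmel read at most 5.11, on WT nasal, and the sum was mostly Mitf. Of 10 macrophage markers 1 to 6 were detected, and their sum was higher on the KO array in each region, at 267 against 137 in nasal, 112 against 38.8 in temporal and 254 against 51.3 in dorsal. Single genes weighed much in these sums, as Laptm5 read 7.61 on KO dorsal and 4.96 on WT dorsal. In nasal Mrc1 and Lyz2 were higher on KO (6.62 and 6.56 against 4.47 and 4.57). Laptm5 (4.31 against 6.23) and Aif1 (4.24 against 5.10) were lower there. Ptprc and C1qb were detected on 0 arrays. Sums for 13 periocular mesenchyme markers overlapped, at 930 to 1152 on KO and 747 to 1354 on WT arrays. Those for 8 markers of nerve glia and neural crest also overlapped, at 96.0 to 407 and 159 to 801. Erbb3, at 8.34, made up much of the KO nasal sum. On average, KO minus WT was -1.87 for Sox10, -1.22 for Fabp7, -0.95 for Ngfr and -0.11 for Erbb3. Ngfr did not overlap, at 4.47 to 4.83 on KO and 4.89 to 6.71 on WT arrays. Foxd3 and Mbp averaged 0.35 and 0.38 higher on KO arrays, and S100b and Cdh19 were detected on 0 arrays.

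Among the 9 genes tested, Cldn6 was the other one whose groups did not overlap. Cldn6, a claudin of embryonic epithelia that most adult tissues lose, read 8.97, 8.53 and 8.60 on KO nasal, temporal and dorsal and 8.14, 8.31 and 8.35 on WT nasal, temporal and dorsal. The lowest KO array was 0.18 above the highest WT array (bead SE 0.10), a gap within 1.96 bead SE. By region Cldn6 was 0.83 higher on the KO array in nasal (bead SE 0.11, 1.78-fold), 0.22 in temporal (bead SE 0.10) and 0.25 in dorsal (bead SE 0.08). The fitted difference was 0.43 (SE 0.26, 95% interval -0.22 to 1.08, higher in 3 of 3 regions) and did not pass (adjusted p = 0.818 in limma). Without either nasal array it was 0.23, with median scaling it was 0.71, and the adjusted p was between 0.636 and 0.998 in limma over the alternatives. The share of all genes tested with KO arrays above WT arrays was 5.16%, and with KO arrays below it was 6.31% (11.5% together). With 1 of 9 genes in each direction, of which Cldn11 was chosen on it, the counts say little beyond that background.

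Cldn1, a claudin needed for the water barrier of the epidermis, was dim, at 4.71, 4.25 and 5.06 on KO nasal, temporal and dorsal and 5.08, 4.88 and 5.20 on WT. It was not detected on KO temporal. The groups overlapped, as KO dorsal lay above WT temporal. Its differences were -0.37 in nasal (bead SE 0.23) and -0.14 in dorsal (bead SE 0.19), both within 1.96 bead SE, and in temporal the WT array was at least 1.27-fold higher. The fit gave -0.38 (SE 0.25, lower in 3 of 3 regions, adjusted p = 0.831 in limma). With median scaling the dorsal difference of Cldn1 was 0.022. Of the 9 genes 1 was thus higher in all 3 regions and 2 were lower, of which Cldn11 was chosen for being lower, while over all genes 13% were higher and 14.4% lower in all 3 (27.4% together).

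The other 6 genes tested had differences of both signs. Cldn3, a sealing claudin of simple epithelia, read 7.66, 6.14 and 7.18 on KO and 6.50, 7.18 and 6.71 on WT nasal, temporal and dorsal. It was 1.15 higher on the KO array in nasal (bead SE 0.10, 2.22-fold), at -1.04 in temporal (bead SE 0.08, 2.06-fold lower) and 0.47 higher in dorsal (bead SE 0.12). The KO arrays held both the highest and the lowest value of the gene.

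Cldn7, which binds the adhesion molecule EpCAM and lies along the lateral membrane, read 6.96, 8.35 and 7.78 on KO and 7.56, 6.94 and 7.61 on WT nasal, temporal and dorsal. Here KO temporal was highest, 1.41 above its WT array (bead SE 0.13, 2.65-fold), while in nasal the difference was -0.60 (bead SE 0.19) and in dorsal 0.17 (bead SE 0.11). Cldn3 and Cldn7 therefore differed in opposite directions within nasal and within temporal.

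Cldn23, a claudin of differentiated epithelia, read 6.62, 8.24 and 8.06 on KO and 8.71, 7.43 and 7.71 on WT nasal, temporal and dorsal. The difference was -2.10 in nasal (bead SE 0.10, 4.27-fold), 0.81 in temporal (bead SE 0.09) and 0.35 in dorsal (bead SE 0.09). In wild type Cldn23 had the same order of regions as Cldn11, with nasal 1.00 log2 units above dorsal and dorsal 0.29 above temporal, whereas on the KO arrays nasal was lowest.

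Cldn8, a sealing claudin of the distal nephron, had 2 probes detected on all arrays. The brighter read 6.84, 6.65 and 5.14 on KO and 6.19, 6.28 and 6.74 on WT nasal, temporal and dorsal, and the dimmer 5.88, 5.31 and 4.67 on KO and 5.41, 5.11 and 5.49 on WT. With both probes KO dorsal was the lowest of the 6 arrays. KO nasal was the highest, but with the brighter probe only by 0.097 over WT dorsal (bead SE 0.12), within 1.96 bead SE. The differences were 0.65, 0.37 and -1.60 with the brighter probe (bead SE 0.15, 0.16 and 0.15) and 0.47, 0.20 and -0.83 with the dimmer. Whether the genotype difference in dorsal departed from that in nasal and temporal was tested as an interaction with 1 residual degree of freedom. For Cldn8 that interaction was -2.11 (SE 0.59, unadjusted p = 0.0202 in limma) and did not pass after adjustment over all genes (adjusted p = 1 in limma), while 2.09% of all genes had an unadjusted p under 0.05. With the dimmer probe it was -1.16.

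Ocln read 6.10, 5.09 and 5.03 on KO and 5.69, 5.39 and 5.57 on WT nasal, temporal and dorsal. Its differences were 0.41, -0.30 and -0.54 (bead SE 0.17, 0.17 and 0.17). KO nasal stood above the other arrays, and the WT arrays ran from 5.39 to 5.69. Tjp1 read 8.71, 7.81 and 7.98 on KO and 8.03, 8.20 and 7.80 on WT, with differences of 0.68, -0.39 and 0.18 (bead SE 0.13, 0.11 and 0.08). KO nasal was again highest, 0.52 above WT temporal, the next array (bead SE 0.11).

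Cldn4 read 5.17 on KO nasal and 4.18 to 4.47 on the other 5 arrays, where it was not detected. In nasal the KO array was at least 1.61-fold higher. KO nasal thus held the highest value for Cldn3, Cldn4, Cldn6, Cldn8, Ocln and Tjp1, and the lowest for Cldn23, for Cldn8 with the limit just given. That array also had the fewest detected probes, and the part of this in these values was not tested. How often other genes had their highest or lowest value on KO nasal was not counted. The pattern is therefore not shown to be particular to these genes.

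In the fit over regions the 8 genes other than Cldn11 lay between -0.38 and 0.43 log2 units, with adjusted p between 0.818 and 0.962 in limma. The intervals were wide: for Tjp1 0.16 (95% interval -0.58 to 0.90), for Ocln -0.14 (-0.86 to 0.57), for Cldn7 0.33 (-0.72 to 1.37), for Cldn3 0.19 (-0.93 to 1.31), for Cldn8 -0.19 (-1.39 to 1.01) and for Cldn23 -0.31 (-1.77 to 1.14). Changes of about 2-fold in either direction are therefore inside the intervals of several of them. Of all 11147 genes, 0% passed in limma (0 genes), and 659 genes (5.91%) had an unadjusted p under 0.05. Cldn3, Tjp1 and Cldn23 changed sign without a nasal array, at -0.29, -0.11 and 0.58, Cldn7 without a temporal array, at -0.22, and Cldn8 and Ocln without a dorsal array, at 0.51 and 0.05. With median scaling, which moved the median of all genes from -0.01 to 0.14, Cldn8 and Ocln were 0.07 and 0.02.

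**Figure D2:**
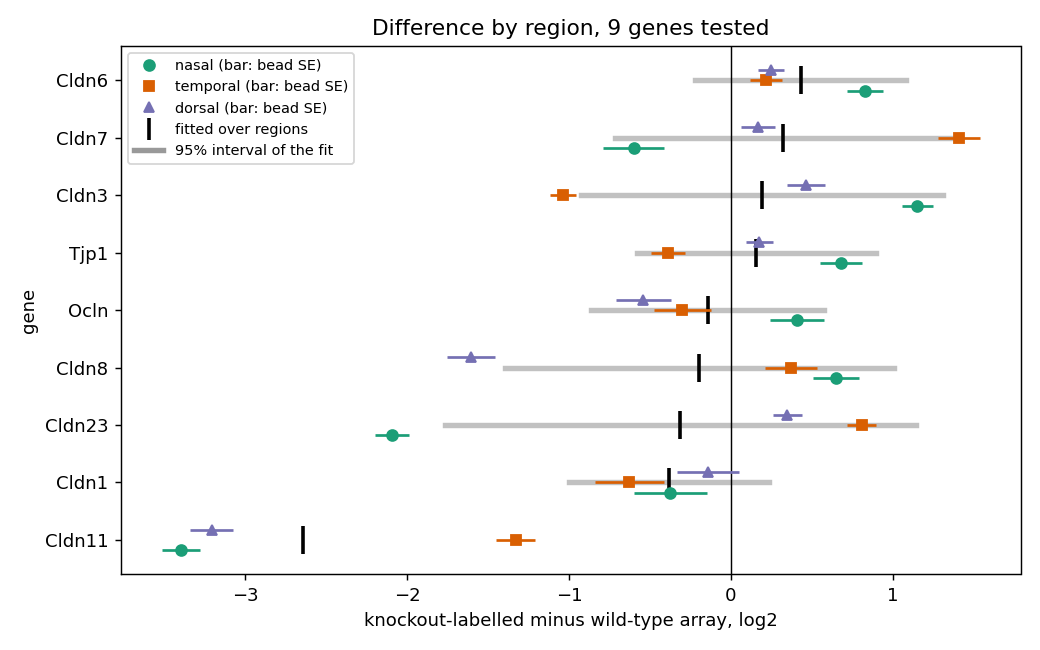
Difference between the knockout-labelled and the wild-type array in log2 units (horizontal axis) for the 9 genes tested (vertical axis), with a coloured symbol for each region and its bead SE, a black tick for the fit over regions and a grey bar for its 95% interval, left out for Cldn11. The 3 symbols of Cldn11 lie at -3.40, -1.33 and -3.21, those of Cldn6 are all above 0, and the symbols of 6 genes fall on both sides of 0.

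A difference of at least 2-fold within a region was seen in 8 of 27 cases, in 5 of the 9 genes. In nasal there were 3 of 9 (Cldn3 higher, Cldn11 and Cldn23 lower), in temporal 3 of 9 (Cldn7 higher, Cldn3 and Cldn11 lower) and in dorsal 2 of 9 (Cldn8 and Cldn11 lower). As Cldn11 was chosen on this difference, the count to read against all genes is that of the other 8, which was 5 of 24, with 2 of 8 in nasal, 2 of 8 in temporal and 1 of 8 in dorsal. Without background correction 4 of 27 differences reached 2-fold (2 of 24 without Cldn11), with an offset of 50 it was 5, and with median scaling 10. The dimmer Cldn8 probe, at -0.83 in dorsal, did not reach it. Over all genes 19.4% differed at least 2-fold in nasal (9.74% higher, 9.64% lower), 15.8% in temporal (8.02% and 7.78%) and 6.07% in dorsal (2.93% and 3.14%). The median SD over the 3 arrays of a genotype was 0.60 on KO and 0.30 on WT for the 9 genes, and 0.39 and 0.28 for all genes tested. The SD was larger among KO arrays in 8 of the 9 genes, Cldn11 being the exception, and in 64% of all genes.

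Between regions, over both genotypes, 0 of the 9 genes passed in limma for nasal and temporal against dorsal, and 0 for nasal against temporal. Unadjusted p-values under 0.05 were held by 0 of the 9 in either comparison, against 3.83% and 7.07% of all genes. The largest estimates for nasal and temporal minus dorsal were 0.55 for Cldn8 (SE 0.51) and -0.41 for Cldn1 (SE 0.26), each with an adjusted p = 0.999 in limma. For nasal minus temporal they were 1.11 for Cldn11, given above, and 0.65 for Ocln (SE 0.35, adjusted p = 0.748 in limma, nasal higher with both genotypes). On KO arrays nasal Ocln was 1.01 above temporal (bead SE 0.16). On WT arrays the steps from nasal to dorsal (0.12) and from dorsal to temporal (0.18) were each within 1.96 bead SE. In the interaction 0 of 11147 genes passed in limma.

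The wider claudin family had 20 genes with a probe. Of these 11 passed the detection filter, 7 were detected on all 6 arrays and 6 on none. Besides the members, Cldn9, Cldn10, Cldn12 and Cldn15 passed. Cldn10, which forms channels for cations or anions depending on its splice form, read 4.63, 4.25 and 4.23 on KO and 6.22, 7.30 and 4.62 on WT nasal, temporal and dorsal, and was detected on 1 KO and 3 WT arrays. Only WT nasal and WT temporal were clearly above the dim end, and the groups overlapped between KO nasal and WT dorsal. In nasal, where both arrays detected it, the difference was -1.60. KO temporal and KO dorsal were not above background, so WT was at least 6.83-fold higher in temporal and at least 1.12-fold higher in dorsal. The fit over regions did not pass (adjusted p = 0.814 in limma), and its size of -1.68 rests in part on undetected values. Of its other 4 probes, ILMN_1214954 read 5.93 on WT temporal and 4.26 to 4.61 on the other arrays, ILMN_2723576 was detected on 1 array, ILMN_1257561 on 2 and ILMN_2610656 on 0. WT temporal also had the highest sums of cartilage markers (2005) and of nerve glia and neural crest markers (801), and their part in the Cldn10 values was not tested. Cldn5, the claudin of blood vessels, was detected on 1 array, WT nasal.

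**Figure D3:**
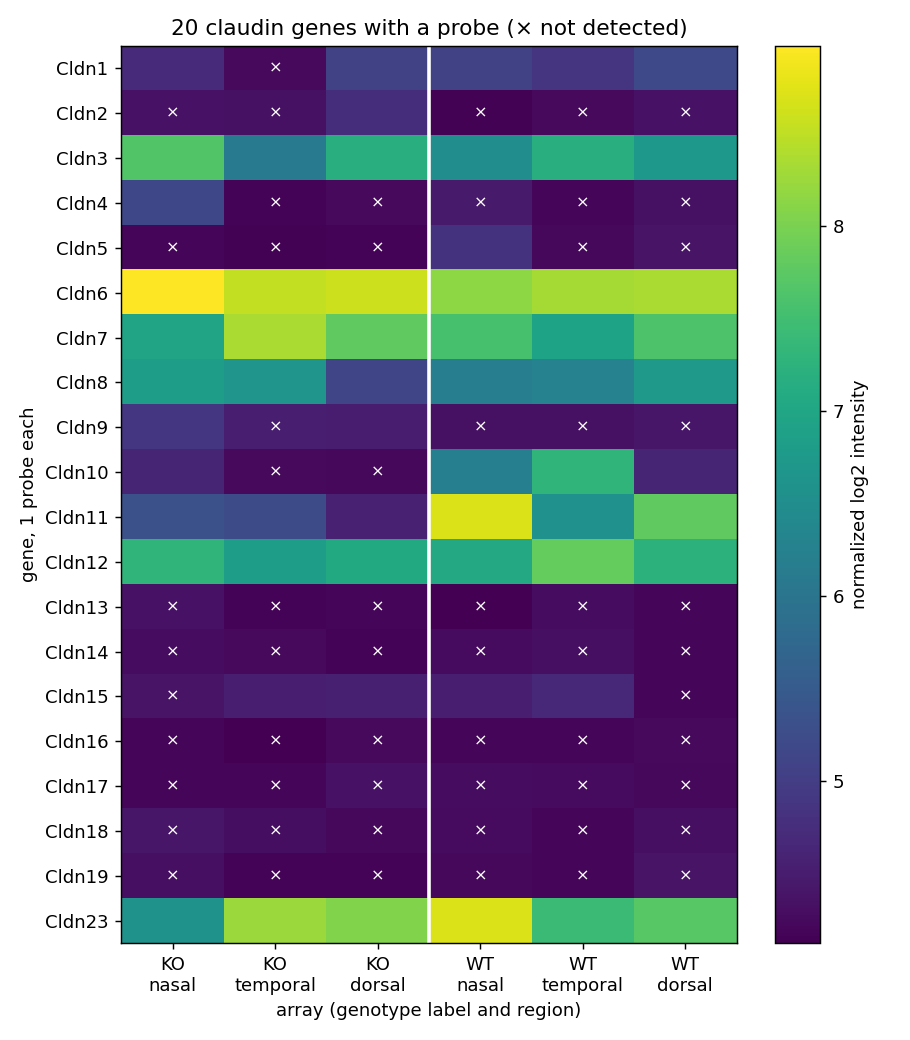
Normalized log2 intensity (colour) of the 20 claudin genes with a probe (rows, 1 probe each) on the 6 arrays (columns, genotype label and region), with a cross where the probe was not detected. Rows are to be read across, since probes differ in brightness, and Cldn11 is brighter on every WT array than on any KO array while Cldn10 is so on WT nasal and WT temporal but not on WT dorsal.

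Other junction genes came from 5 lists of 91 genes in all, of which 82 had a probe and 65 were tested. In limma 0 of the 65 passed. Unadjusted p-values under 0.05 were held by 3 higher genes and 2 lower ones, against 2.75% and 3.17% of all genes. KO arrays were all above WT arrays for 4 (6.15%) and all below for 6 (9.23%), beside 5.16% and 6.31% of all genes. Cldn9 and Jam3, among these 10, were detected on arrays of 1 genotype alone and so passed the filter only through the group where they were higher. Jam3 was also among the 2 lower genes by unadjusted p-value, so the same limit holds there. The other was Cldn10, detected on 1 KO and 3 WT arrays.

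Of membrane proteins of the junction other than claudins, 8 of 12 were tested, 2 higher and 6 lower, with a median of -0.30 beside -0.01 for all genes. Jam3, a junctional adhesion molecule, was detected on 0 of 3 KO and 3 of 3 WT arrays. It read 4.20, 4.43 and 4.26 on KO and 5.72, 6.12 and 4.90 on WT nasal, temporal and dorsal. On the mean of the 3 arrays of a genotype, Jam3 was at least 2.09-fold lower on KO, while in dorsal the measured difference was only -0.64. The fit did not pass (adjusted p = 0.814 in limma), and the KO values are all at background. The tricellular protein gene Marveld2 and its relative Marveld3, both with groups that did not overlap and named after their values were seen, were at 0.34 (SE 0.24, adjusted p = 0.848 in limma) and -0.53 (SE 0.24, adjusted p = 0.814 in limma).

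Of scaffold and polarity genes 25 of 28 were tested, 13 higher and 12 lower, with a median of 0.06 and 0 past an unadjusted p of 0.05. Of regulators of claudins and of the barrier 18 of 21 were tested, 11 higher and 7 lower, with a median of 0.06. Esrp2, a splicing regulator of epithelial cells, read 7.07, 7.80 and 7.94 on KO and 5.83, 6.42 and 6.63 on WT nasal, temporal and dorsal, with no overlap. Its fitted difference was 1.31 (SE 0.23, higher in 3 of 3 regions, adjusted p = 0.814 in limma). Its other probe, ILMN_1224254, gave 0.41 and disagreed in dorsal, at 5.70 on KO and 7.02 on WT. Named after their values were seen, the barrier factor Grhl3 was at 0.68 (SE 0.27, adjusted p = 0.814 in limma). Lower on KO arrays and named likewise were Grhl2, at -0.42 (SE 0.25, adjusted p = 0.815 in limma), and Epcam. Epcam was at -0.44 (SE 0.29, adjusted p = 0.834 in limma), with groups that did not overlap. Ovol1, a transcription factor of epithelia named likewise, was not detected on WT nasal and WT temporal, and KO was at least 2.02-fold and at least 1.19-fold higher there. Of adherens junction genes 10 of 12 were tested, 5 higher and 5 lower, with a median of -0.05, and Cdh1, the E-cadherin gene, was at -0.11 with its brighter probe and 0.68 with its dimmer one.

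**Figure D4:**
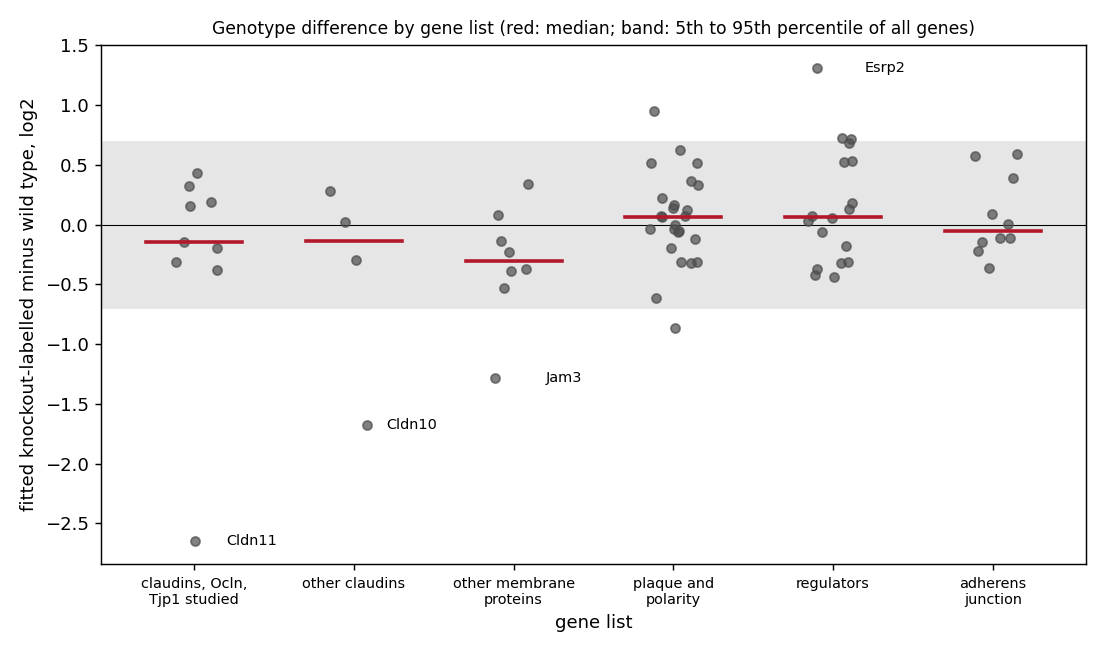
Fitted difference between knockout-labelled and wild-type arrays in log2 units (vertical axis) for each gene tested in the members' list and 5 other junction lists (horizontal axis), with a red line at each list's median and a grey band from the 5th to the 95th percentile of all genes tested, -0.70 to 0.69. Cldn11, Cldn10, Jam3 and Esrp2 are the 4 genes 1 log2 unit or more from 0, and list medians lie between -0.30 and 0.06.

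The genes whose values over the 6 arrays were most like those of Cldn11 were sought among 1190 genes with a range of at least 2 log2 units. Highest were Dpysl4 (Pearson r = 0.98), a collapsin response mediator detected on 0 KO and 3 WT arrays, Enoph1 (0.96), an enzyme of methionine salvage, and H2-T23 (0.95), a histocompatibility gene. Limk1 (0.91), an actin-regulating kinase, and Foxq1 (0.91), a forkhead transcription factor, came next. Dpysl4 read 6.33, 5.05 and 5.70 on WT nasal, temporal and dorsal, which is the order of Cldn11, and 4.16 to 4.34 on KO arrays. With 6 arrays, 2 genotypes and a gene chosen for its genotype difference, such correlations mostly describe that difference. Within the junction lists and members (73 genes) Marveld3 (0.81), Mpdz (0.80), a scaffold with many PDZ domains, and Elf3 (0.79), an epithelial transcription factor, were most alike, and Esrp2 (-0.91) was least. Among the members r ran from 0.53 for Cldn1 to -0.76 for Cldn6, so that none of the other 8 followed Cldn11 closely.

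**Figure D5:**
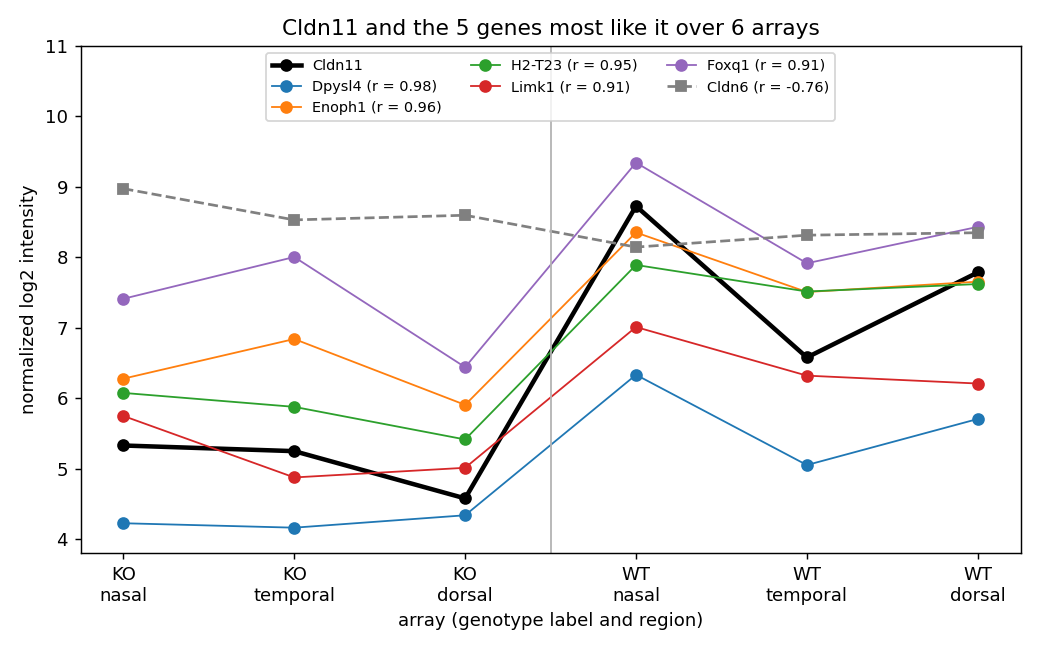
Normalized log2 intensity (vertical axis) on the 6 arrays (horizontal axis, genotype label and region) of Cldn11 in black, the 5 genes most correlated with it in colour and Cldn6 as a dashed grey line. Of the 5 genes, 4 are higher on every WT array than on any KO array, the exception being Foxq1, and Cldn6, at 8.14 to 8.35 there, is lower than its 8.53 to 8.97 on KO arrays.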

How the data were processed

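Signals of 45281 probes were read on 6 Illumina bead arrays. Per the labels' protocols, 15 ng of total RNA from sections of 10 micrometres was amplified and labelled with biotin. One protocol names lens tissue of 1 embryo as the RNA source, against the pools of the design text, which was followed. Of 9 lens markers 2 to 4 were detected per array, with summed intensities of 89.5 to 248 on KO and 58.3 to 104 on WT arrays. Cryaa, Crybb1, Crygd and Foxe3 were detected on 0 arrays, Crybb3 on 1 and Prox1 on 6. Cryba1 was detected on 5 arrays, and Cryab and Mip on 3 each. Cryba1 read 6.346 on WT nasal, and Mip read 5.865 on KO dorsal and 5.869 on WT dorsal. The source of the RNA was not tested. Each probe has, per the file headers, a mean signal intensity with bead standard error, a bead count and a detection p-value, in a deposited table that the authors marked as not normalized. The authors' processed intensity values, from a table of unstated method and centring, served as an alternative. GenomeStudio is named in the submitters' processing notes. The 1315 entries without an identifier were not used.

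Signals were background-corrected with normexp in limma 3.58.1 (R 4.3.3; controls inferred from detection p-values, offset 16), quantile-normalized and taken to log2. Symbols were updated by Entrez identifier through GRCm38.p6. A probe was kept with a detection p-value under 0.05 on at least 2 arrays, and the brightest stood for its gene. Region and genotype were fitted with lmFit and eBayes over 11147 genes, with Benjamini-Hochberg adjustment at 0.05, after a check on simulated data. With 3 arrays a group, permutation without regard to region could reach 0.1 at the lowest. Exchange within regions allows fewer arrangements, so its lowest value is higher. Folds include the offset, which shrinks those of dim genes, bead SE covers measurement on the array alone, and the number of arrays limits the precision. Genes of the other lists were named where the fitted difference was at least 1 log2 unit, where each of the 3 regional differences was at least 0.5 with the same sign, or where dorsal differed from the other regions by at least 1.5, and exceptions are marked. The members and lists were chosen with earlier results of these data known.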

Additional observations from a re-analysis of the deposited data

Results flagged for a closer look

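Differences between arrays that ran in opposite directions in different regions, each beyond 1.96 bead SE, were seen for 6 genes. With 1 array per genotype and region, the difference between those regions was not tested except for dorsal against the others, where 0 genes passed in limma and the members' adjusted p was 1. For Cldn3 the KO array was 1.15 log2 units above WT in nasal and at -1.04 in temporal. Cldn7 ran the other way, at 1.41 in temporal and -0.60 in nasal. Cldn23 was at 0.81 in temporal and -2.10 in nasal. Cldn8 was at 0.65 in nasal and -1.60 in dorsal, Ocln at 0.41 in nasal and -0.54 in dorsal, and Tjp1 at 0.68 in nasal and -0.39 in temporal.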

How the results depend on the processing

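In all 673 recomputed values were set beside those reported, of which 602 kept their direction or moved by less than bead error, 30 moved further and 41 changed sign. Many of them could not move. Other detection filters, the mean of probes and the fit without region leave the estimate of a gene with a single probe as it was. Leaving out either array of a region gives the same genotype estimate. The 602 is therefore no measure of robustness. The count of genes past an adjusted p of 0.05 was 0 in limma in every comparison under every alternative run, and 1 gene of the 9 lay wholly above and 1 wholly below in the 7 alternatives over all arrays. Cldn11, Cldn6 and Cldn1 kept the sign of their genotype difference throughout, at -3.30 to -1.55 for Cldn11, and the sign changes of fitted differences came when 1 array was left out or with median scaling. Median scaling turned the genotype difference of Cldn8 to 0.068 and of Ocln to 0.020, and it put 65.4% of all genes higher on KO arrays, against 49.3%. With 1 array left out, the genotype difference ran from -0.29 to 0.81 for Cldn3, -0.22 to 0.79 for Cldn7, -0.62 to 0.51 for Cldn8, -0.87 to 0.58 for Cldn23, -0.42 to 0.054 for Ocln and -0.11 to 0.43 for Tjp1. For nasal and temporal minus dorsal the ranges were -0.54 to 0.39 for Cldn3, -0.13 to 0.17 for Cldn6, -0.65 to 0.16 for Cldn7, -0.51 to 1.61 for Cldn8, -0.20 to 0.78 for Cldn11, -0.81 to 0.53 for Cldn23 and -0.027 to 0.57 for Ocln, and for nasal minus temporal -0.50 to 1.35 for Cldn3, -0.16 to 0.44 for Cldn6, -1.20 to 0.43 for Cldn7, -0.58 to 0.69 for Cldn8, -1.51 to 1.17 for Cldn23 and -0.040 to 0.78 for Tjp1. The dimmer Cldn8 probe was added after seeing the data. Fold sizes of dim probes depend on background and offset. The labels give no replicate numbers, and the genotype fit pairs arrays by region.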
